A study of Homo sapiens with 61 samples.

Results

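The genes described here encode the subunits of the mitochondrial respiratory chain and of ATP synthase, together with a few close companions. They were taken by symbol from the gene annotation GENCODE 29: the genes of the mitochondrial genome (MT-ND, MT-CO, MT-CYB and MT-ATP), and the nuclear NDUF genes of complex I, SDHA to SDHD of complex II, the UQCR genes and CYC1 of complex III, the COX4 to COX8 genes of complex IV and the ATP5 genes of complex V. Of 58440 gene identifiers in the count files, 113 matched, 13 of them mitochondrial and 100 nuclear. Among the nuclear genes, 8 carry NDUFAF symbols, which are assembly factors of complex I and not subunits of it. The respiratory chain passes electrons from NADH and succinate to oxygen and pumps protons, and ATP synthase uses the proton gradient to make ATP. Its subunits come from 2 genomes: the mitochondrial genome is transcribed inside the organelle into long transcripts that are cut apart, while the nuclear genes are transcribed one by one and their proteins imported. Neurons depend heavily on this route for ATP, and both sets of transcripts are needed to build complexes I, III, IV and V, whereas complex II is encoded in the nucleus alone.

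The neurons came from WTC11, a widely used established line of human induced pluripotent stem cells, driven to a cortical neuron fate by the transcription factor NGN2. Experiment 1 compared 4 lines, each with a doxycycline-driven NGN2 cassette: wild type (WT), a knockout of DLK (gene MAP3K12), a knockout of LZK (gene MAP3K13) and a DLK LZK double KO, all in groups of 4 libraries. DLK and LZK are related kinases that relay axon damage to the JNK pathway. Experiment 2 used i3Neurons with CRISPR interference machinery and a lentiviral guide RNA, either a scrambled Control gRNA, an ATF2 gRNA or a JUN gRNA, in groups of 5 libraries apart from 4 in the ATF2 gRNA vincristine group. ATF2 and JUN are transcription factors downstream of that pathway, and interference lowers transcription of the target without cutting DNA. In both experiments the neurons received, on day 14, either the vehicle DMSO (labelled untreated) or 5 nM vincristine, a drug that disrupts microtubules, for 16 h. The labels do not say whether a knockout line is a single clone, nor whether libraries of a group came from separate cultures, so p-values measure the spread between these libraries, which may be technical.

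Polyadenylated RNA was sequenced, and the deposited values were whole-number counts per gene, with 8410729 to 14647819 counts per library in experiment 1 and 38925807 to 88392414 in experiment 2. MAP3K12 stood at 91.0 ± 2.2 CPM (SD, n = 4), the field's usual count scaled to library size, in untreated WT libraries and at 26.3 ± 2.5 in the untreated DLK KO, MAP3K13 at 99.1 ± 1.9 against 31.9 ± 2.0 in the LZK KO, ATF2 at 129 ± 19 with the Control gRNA (n = 5) against 0.526 ± 0.294 with the ATF2 gRNA, and JUN at 88.5 ± 7.0 against 2.87 ± 0.45 with the JUN gRNA. JUN was also low with the ATF2 gRNA, at 21.0 ± 2.0 CPM untreated and 20.5 ± 3.1 after vincristine. After vincristine with the Control gRNA it stood at 237 ± 13 CPM. ATF2 stood at 71.0 ± 5.9 CPM in the untreated DLK KO against 141 ± 14 in untreated WT, and JUN at 55.3 ± 5.3 against 140 ± 8. The gene ATF2 lies on chromosome 2, 7875 bases from ATP5MC3, a member described below. Other genes within 2 Mb of ATP5MC3 had a median log2 fold change of -0.93 in that comparison, and the cause was not tested. The lines thus differed in more than the gene named. All 10 neuron markers checked were expressed, and their summed level was 10880 to 17630 CPM in experiment 1 and 9394 to 13760 in experiment 2. Of 6 markers of pluripotent cells 3 and 4 passed the filter on low counts, with sums of at most 62.6 CPM. In untreated neurons these sums were 3.37 to 4.67 CPM in WT and 54.0 to 59.9 in the double KO. They were 10.3 to 13.5 CPM with the Control gRNA and 33.9 to 40.4 with the ATF2 gRNA. Over the libraries of experiment 1 LIN28A led this sum, with a mean of 19.5 CPM beside 1.51 for DPPA4 and 0.415 for POU5F1. Over those of experiment 2 DPPA4 and LIN28A led it, at 10.5 and 9.52 CPM beside 0.345 for POU5F1. Markers of dividing cells summed to 10.6 to 12.4 CPM in untreated WT and 62.5 to 70.8 in the untreated LZK KO. The part of these differences in the results was not tested. The 2 experiments differed in depth and in the share of counts from mitochondrial ribosomal RNA (2.83% to 6.72% and 0.863% to 1.75%). Small non-coding RNA from outside the mitochondrial genome took 1.79% to 5.77% and 0.00795% to 0.0145% of counts. No level is therefore set against one of the other experiment. Changes were tested with edgeR's quasi-likelihood test on all genes that passed the filter, and a gene is called higher or lower where the adjusted p, corrected over all genes tested, is below 0.05.

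The filter kept all 13 mitochondrial and 91 of 100 nuclear members among 18235 genes in experiment 1, and all 13 and 94 of 100 among 20759 genes in experiment 2. The 9 members that failed it in experiment 1 were COX4I2, COX6A2, COX6B2, COX7A1, COX7B2, COX8C, ATP5MGL and the readthrough genes NDUFC2-KCTD14 and ATP5MF-PTCD1, of which COX6B2, COX8C and ATP5MF-PTCD1 passed in experiment 2, at means of at most 0.372 CPM in untreated Control gRNA neurons. The muscle, testis and lung forms of complex IV subunits were thus at or near 0 in these neurons, beside COX4I1 at 368 ± 14 CPM (SD, n = 5), COX6A1 at 114, COX6B1 at 162, COX7A2 at 161, COX7B at 132 and COX8A at 139 in the same group. NDUFA4L2, an isoform of the complex IV subunit NDUFA4, was low, at 4.72 CPM beside 287 for NDUFA4. In the annotation 34.5% of the exonic bases of COX8A, 33.8% of those of NDUFB8, 32.3% of NDUFA7, 30.9% of COX6B2, 28.4% of NDUFV2 and 21.0% of NDUFA13 are shared with another gene on the same strand, so the counts of these genes are uncertain. For ATP5MF-PTCD1 that share is 88.3%. If reads were not counted by strand, overlaps on either strand matter too. These cover 61.6% of ATP5ME, 49.1% of NDUFS7, 44.85% of NDUFB11, 44.5% of NDUFA1 and 35.9% of NDUFB2.

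Transcripts of the mitochondrial genome were far more abundant than the nuclear ones. In untreated Control gRNA neurons the 13 mitochondrial members summed to 51973 ± 1835 CPM (SD, n = 5) and the nuclear members to 11029 ± 199 CPM. The corresponding sums in untreated WT neurons were 31794 ± 2059 and 6819 ± 562 CPM (SD, n = 4). Per kilobase of gene length MT-CO3, MT-CO1 and MT-CO2, the core of complex IV, led in untreated Control gRNA neurons with 9360 ± 183, 9059 ± 287 and 8595 ± 231 CPM per kb, and MT-ND6 was lowest with 205 ± 12. ATP5F1B, the catalytic beta subunit of ATP synthase, was the most abundant nuclear member on this scale, with 461 CPM per kb. MT-ND6 is the only member read from the other strand of the mitochondrial genome, and whether reads were counted by strand is not given in the sources used here, so reads from the opposite strand of that locus cannot be told apart from it. Mitochondrial pseudogenes in the nuclear genome, 394 listed, took 0.891% to 1.76% of all counts on mitochondrial and mitochondria-like genes, and some reads could be split between copies.

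The coding stretches of MT-ATP8 and MT-ATP6, 2 subunits of ATP synthase, overlap by 46 bases at chrM:8527-8572 (GRCh38), or 22.2% of MT-ATP8, and are carried by 1 transcript. The overlap is printed here because reads inside it belong to both genes, so that their counts are not independent. No base of it is capitalised.
MT-ATP8 and MT-ATP6 overlap: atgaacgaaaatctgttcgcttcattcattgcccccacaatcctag
MT-ND4L and MT-ND4, subunits of complex I on another shared transcript, overlap by 7 bases. The 13 mitochondrial members therefore do not give 13 separate measurements.

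**Figure D1:**
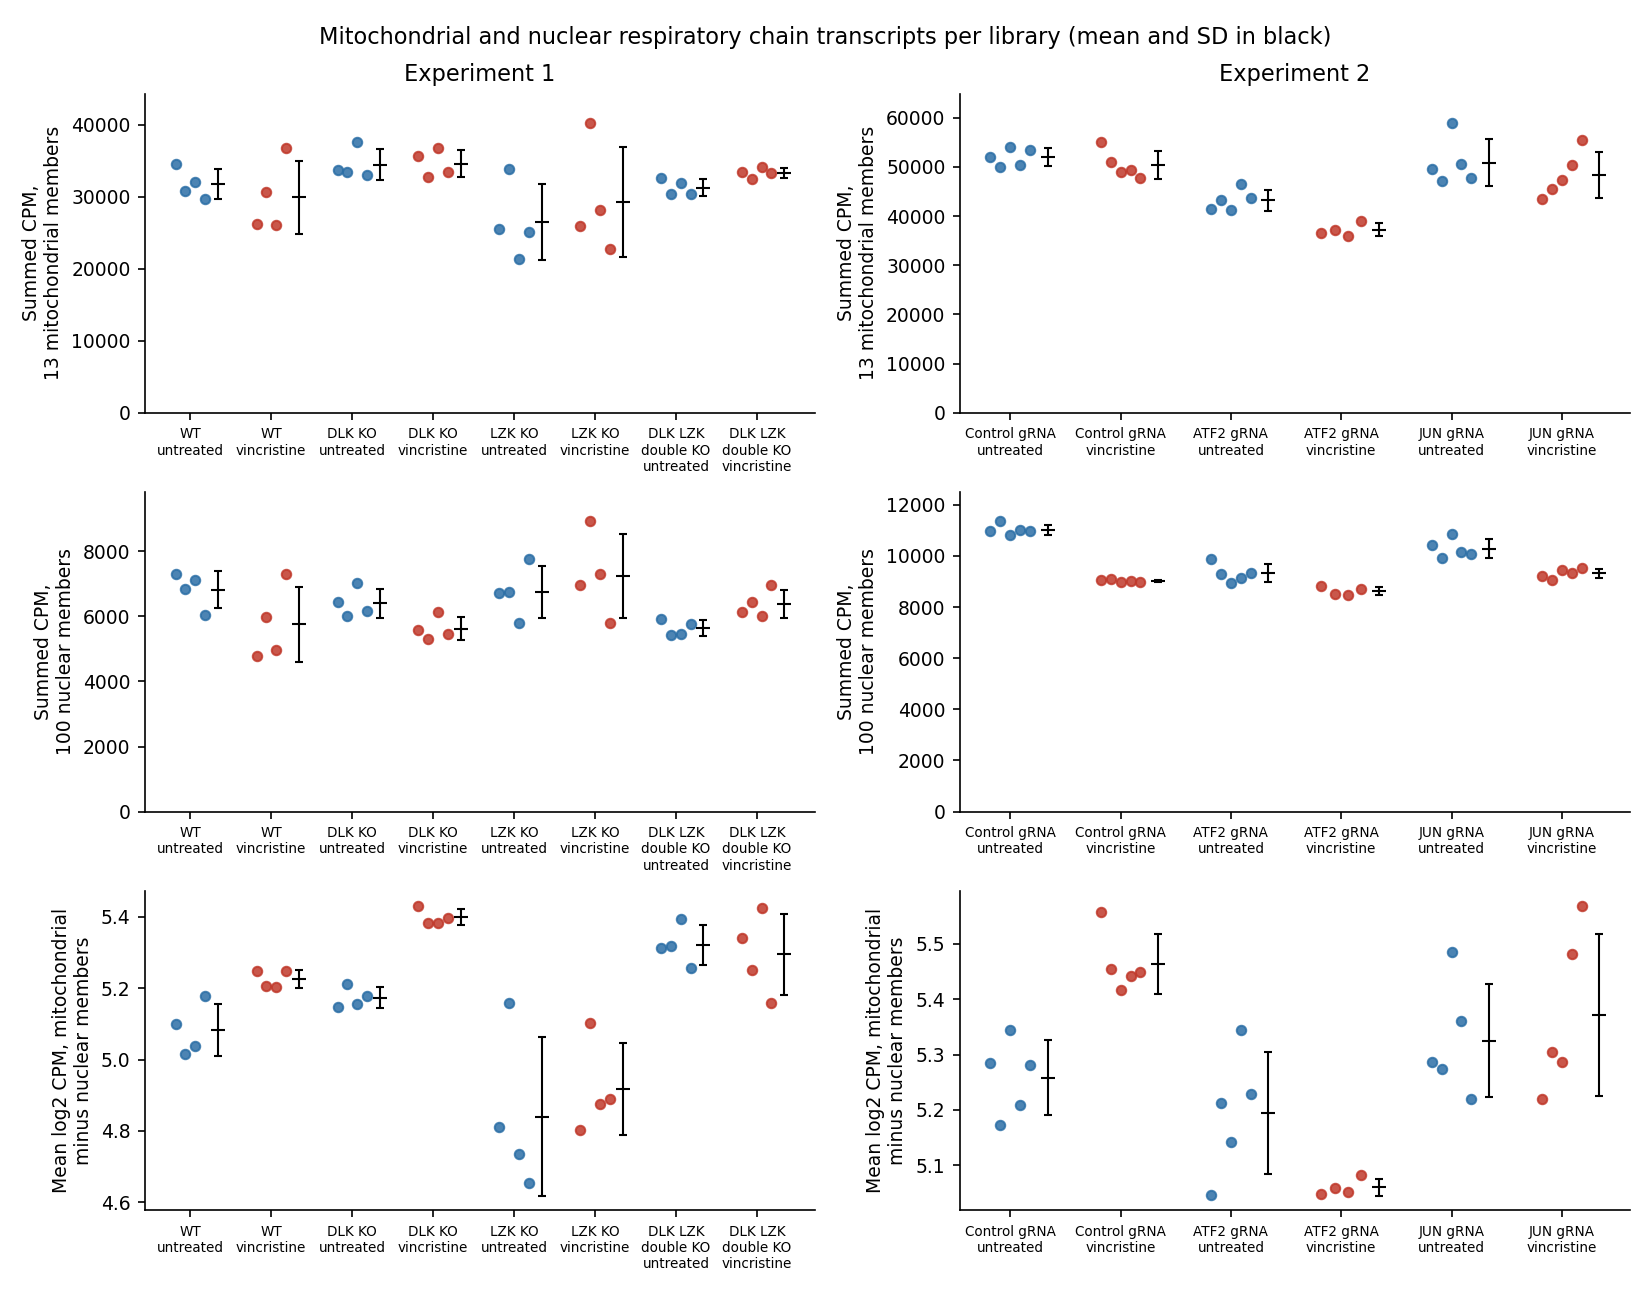
Summed CPM of the mitochondrial members, summed CPM of the nuclear members and the mean log2 CPM of the mitochondrial minus that of the nuclear members, in each library by group (points, with mean and SD in black). In Control gRNA neurons the nuclear sum lay at 10806 to 11353 CPM untreated and 8969 to 9089 CPM after vincristine, and the difference between the sets moved up, while in ATF2 gRNA neurons the mitochondrial sum lay lower after vincristine (36010 to 39012 against 41145 to 46547 CPM).

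Vincristine was followed by lower nuclear respiratory chain transcripts in Control gRNA and WT neurons. With the Control gRNA 73 of 94 nuclear members fell and 1 rose, against 18.1% of all genes called lower and 17.1% called higher, and the median log2 fold change was -0.27 against 0.03 over all genes. Among the mitochondrial members 2 of 13 fell, none rose, and the median was -0.06. In WT neurons of experiment 1, sequenced less deeply, 31 of 91 nuclear members fell and 2 rose, against 14.5% and 15.7% of all genes, with a median of -0.29 against 0.00 over all genes, and no mitochondrial member was called (median -0.14, and 0 of 13 with an unadjusted p below 0.05). DESeq2 also called 0 of 13 in WT, and limma voom 3.

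The WT count depended on single libraries. WT vincristine replicate 4 had a nuclear sum of 7302 CPM, beside 4779, 5971 and 4977 in replicates 1 to 3 and 6024 to 7287 in the 4 untreated libraries. Small non-coding RNA took 3.53% of the counts of replicate 4, beside 2.36%, 2.61% and 2.02% in replicates 1 to 3. In the untreated libraries it took 2.03% to 3.04%, and its part in the result was not tested. Without replicate 4, 58 nuclear members were lower and 2 higher. Without vincristine replicate 1 the number lower was 17, and without replicate 3 it was 15. The WT count also depended on the method. A fit of only the 2 WT groups called fewer members, and limma voom called more, as given in the closing section. No library left out of the Control gRNA groups moved the count outside 69 to 74 nuclear members lower.

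The nuclear members are short genes, with a median exonic length of 2508 bases among those tested in experiment 2 against 5060 for all protein-coding genes tested. With gene length as an offset, an alternative chosen after seeing the data, 69 of 94 were lower with the Control gRNA and 23 of 91 in WT. Marker genes moved too. The summed neuron markers went from 13340 to 13760 CPM in the untreated Control gRNA libraries to 9394 to 9924 after vincristine, and 5 neural progenitor markers from 1309 to 1398 CPM to 2427 to 2524 CPM. The latter sum was almost entirely NES, with a mean over all libraries of experiment 2 of 1348 CPM beside 18.2 for SOX2, 4.37 for PAX6, 2.25 for SOX1 and 0.56 for HES5, and in experiment 1 of 583.9 CPM beside at most 13.6 for the other 4. In WT the ranges were 13440 to 14320 and 10880 to 12530 CPM for neuron markers, and 729 to 771 and 914.5 to 1942 CPM for the sum led by NES. Markers of peripheral neurons, mostly POU4F1, went from 483 to 504 CPM to 198 to 221 CPM with the Control gRNA. In WT they went from 427.3 to 460.5 CPM to 111.4 to 217.5 CPM. The part of these shifts in the result was not tested, and in bulk RNA fewer cells of a type and less RNA per cell cannot be told apart.

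**Figure D2:**
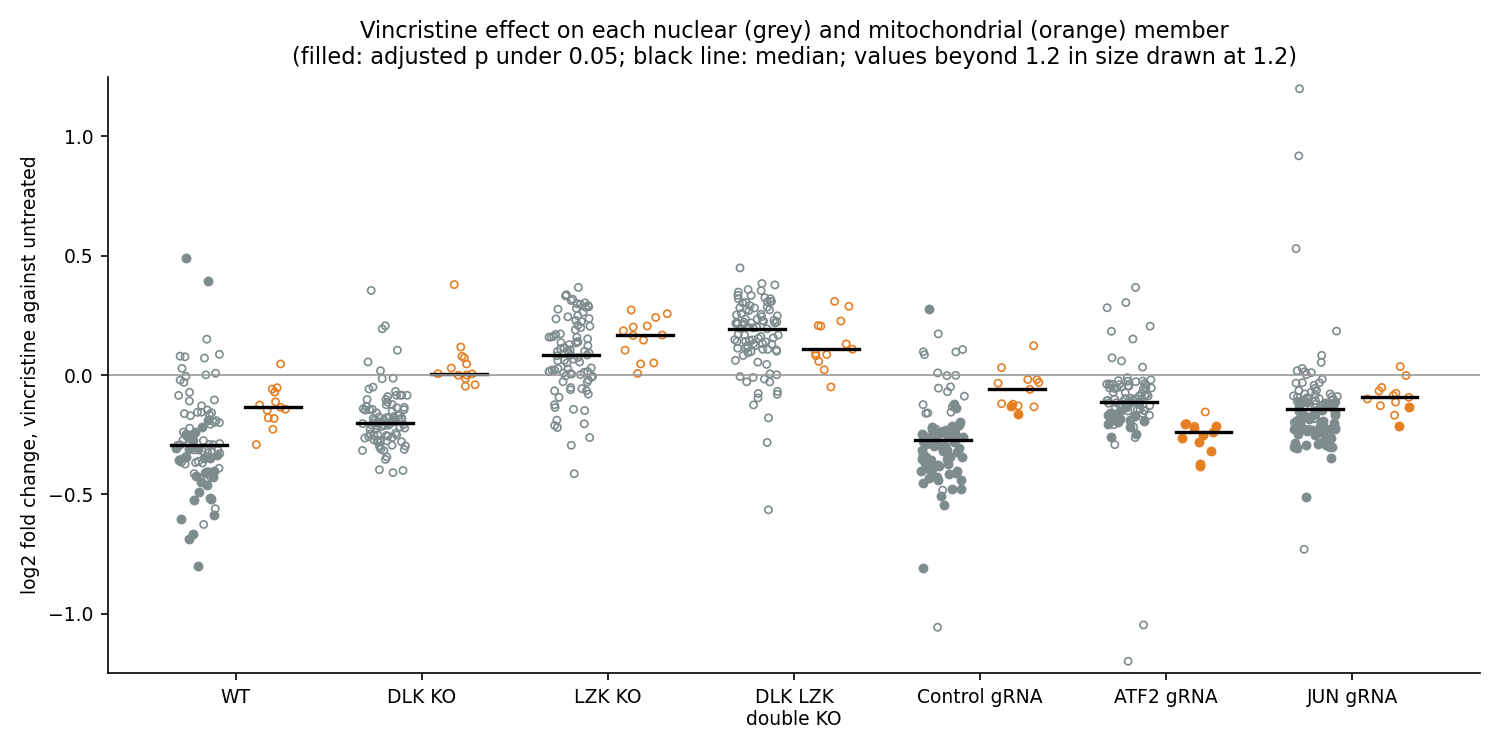
Log2 fold change of vincristine against untreated for every nuclear (grey) and mitochondrial (orange) member tested, in the 7 lines. Filled points have an adjusted p below 0.05 and black lines are medians, which lay at -0.29 (WT) and -0.27 (Control gRNA) for nuclear members and at -0.24 for mitochondrial members with the ATF2 gRNA.

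By complex, the share of members called lower with the Control gRNA was highest for ATP synthase. There 19 of 20 nuclear members of complex V fell (median -0.37), as did 24 of 30 accessory subunits of complex I (-0.27), 5 of 7 core subunits of complex I (-0.24), 8 of 10 members of complex III (-0.31), 11 of 15 of complex IV (-0.26) and 2 of 4 of complex II (-0.08). In WT the numbers lower were 7 of 19 for complex V (-0.32), 9 of 30 and 3 of 7 for accessory and core subunits of complex I (-0.29 and -0.16), 5 of 10 for complex III (-0.34), 1 of 13 for complex IV (-0.29) and 1 of 4 for complex II (-0.14). Complex II, the one complex with no mitochondrial gene, had the median nearest to 0 among the nuclear sets in both experiments. Its flavoprotein subunit SDHA fell in both (-0.25 in WT and -0.34 with the Control gRNA, edgeR adjusted p = 0.00703 and 2.82e-08), while SDHB, SDHC and SDHD stood at -0.20, 0.03 and -0.07 in WT and at -0.05, -0.12 (called) and 0.11 with the Control gRNA.

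**Figure D3:**
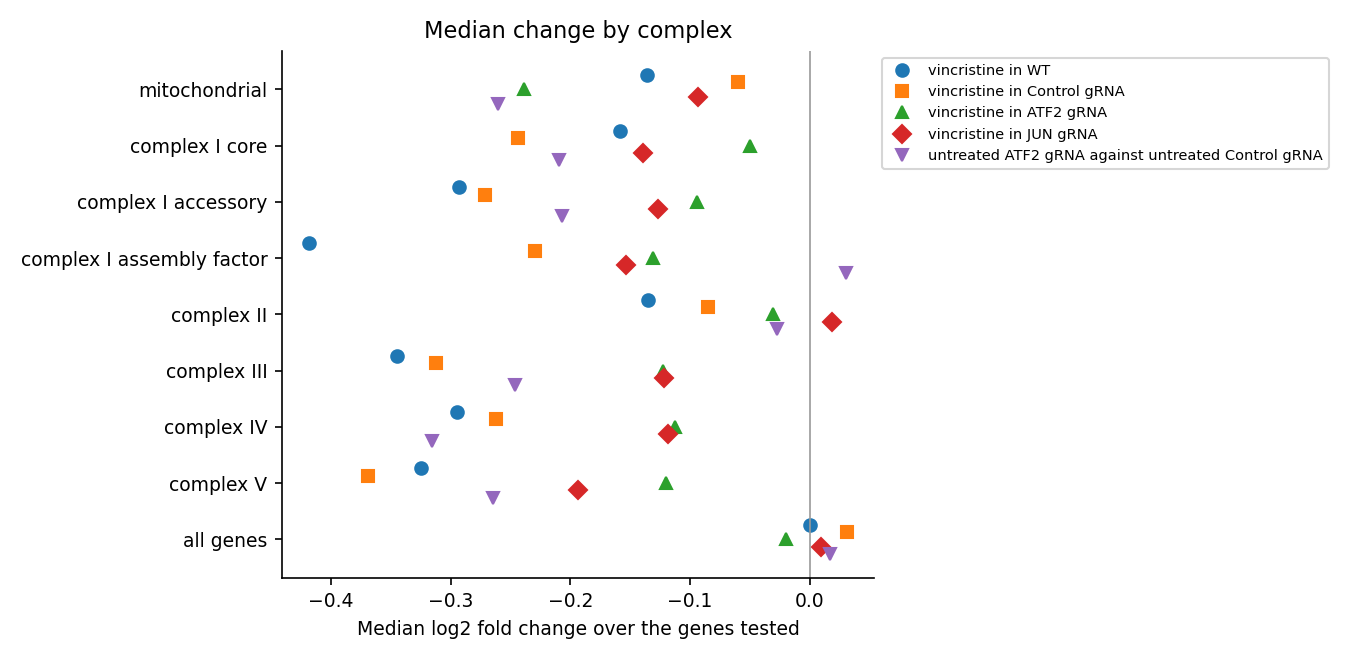
Median log2 fold change of the members of each complex, by comparison (rows and colours as labelled in the picture). Complex V had the lowest median with the Control gRNA, -0.37, and complex II the one nearest to 0 among the nuclear sets, -0.08.

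CYC1, the cytochrome c1 of complex III, was among the clearest WT changes. It stood at 40.6, 50.0, 44.2 and 40.5 CPM in untreated WT libraries and at 27.8, 32.4, 26.8 and 23.4 CPM after vincristine. Every treated library lay below every untreated one, and the log2 fold change was -0.67 (SE 0.11, edgeR adjusted p = 1.34e-05). With the Control gRNA CYC1 stood at 79.4, 92.6, 87.2, 85.6 and 89.2 CPM untreated and at 62.4, 73.3, 68.2, 69.7 and 66.8 CPM after vincristine, again without overlap. Its log2 fold change there was -0.35.

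COX7B, a small structural subunit of complex IV, stood at 133, 139, 132, 129 and 128 CPM in untreated Control gRNA libraries and at 99.2, 93.7, 96.2, 93.1 and 92.7 CPM after vincristine. The groups did not overlap, and the log2 fold change was -0.48 (edgeR adjusted p = 7.91e-13). In WT it was -0.43 and not called. Other nuclear members with large falls in the Control gRNA comparison were NDUFS6, an accessory subunit at the matrix arm of complex I (-0.55, and -0.52 in WT, called in both), ATP5MG, a membrane subunit of ATP synthase (-0.51), and the assembly factor NDUFAF5 (-0.48, and -0.31 in WT). Of the complex IV forms used by these neurons, COX8A (-0.34), COX6B1 (-0.32), COX7A2 (-0.31), NDUFA4 (-0.30), COX7A2L (-0.23) and COX4I1 (-0.22) fell with the Control gRNA, and COX6A1 stood at 0.01. ATP5IF1, which encodes the inhibitor that stops ATP synthase from running backwards, fell by 0.42 in both experiments, a call that WT lost without vincristine replicate 1 or replicate 3.

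Among the 8 assembly factors of complex I, 5 fell in WT, with a median of -0.42: NDUFAF8 (-0.69), NDUFAF2 (-0.61), NDUFAF3 (-0.59), NDUFAF4 (-0.53) and NDUFAF5. NDUFAF7, another of these assembly factors, went the other way. It stood at 31.5, 29.3, 28.2 and 28.5 CPM in untreated WT libraries and at 34.1, 37.3, 35.2 and 47.8 CPM after vincristine, with no overlap, and rose by a log2 fold change of 0.39 (edgeR adjusted p = 0.00291). With the Control gRNA it rose by 0.28, from 25.9, 24.6, 26.4, 27.4 and 27.1 CPM to 31.5, 30.9, 29.6, 31.0 and 36.5 CPM. It was the only nuclear member called higher there. NDUFA4L2 was the other riser in WT (0.49, edgeR adjusted p = 0.01), from 4.68, 4.94, 4.57 and 5.66 CPM to 6.99, 7.91, 7.04 and 5.71 CPM, with a log2 fold change of 0.00 with the Control gRNA.

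ATP5MC1 had the largest fall of any named nuclear member in both experiments. It is 1 of 3 genes, with ATP5MC2 and ATP5MC3, that encode the same mature subunit c, the ring through which protons turn ATP synthase. In untreated Control gRNA libraries ATP5MC1 stood at 102, 99.6, 105, 103 and 105 CPM, and after vincristine at 54.1, 61.0, 60.9, 54.2 and 63.8 CPM. The 2 groups lay far apart, and the log2 fold change was -0.81 (SE 0.06, edgeR adjusted p = 1.11e-15). In WT it stood at 39.7, 35.4, 36.9 and 30.1 CPM untreated and 15.7, 23.2, 16.8 and 26.1 CPM after vincristine, without overlap (log2 fold change -0.80, SE 0.15, edgeR adjusted p = 0.000104). ATP5MC3 fell by 0.45 with the Control gRNA and by 0.40 in WT, and ATP5MC2 fell by 0.36 with the Control gRNA and stood at -0.24, not called, in WT. ATP5MC3 in WT was no longer called without vincristine replicate 1 or replicate 3.

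The 250 bases before the gene start of ATP5MC1 hold the full cyclic AMP response element TGACGTCA, the palindrome to which ATF2 family dimers are known to bind. They are printed with those of ATP5MC2, which hold no copy, and of the 3 other members with one, because these genes are compared again under the ATF2 gRNA. The sequences are from RefSeq on GRCh38.p14, read 5′ to 3′ on the strand of the gene, with the element in capitals: ATP5MC1 at chr17:48892537-48892786 (+), ATP5ME at chr4:674277-674526 (−), NDUFA10 at chr2:240025343-240025592 (−), NDUFB2 at chr7:140696458-140696707 (+) and ATP5MC2 at chr12:53676084-53676333 (−). The element starts 57, 158, 48 and 53 bases before the RefSeq gene start in the first 4. By the gene coordinates supplied with the counts, NDUFB2 begins at chr7:140690777 and ATP5MC2 at chr12:53677408, so these 2 windows lie inside their genes. Presence or absence of the element thus depends on the start used, and other starts were not searched.
ATP5MC1: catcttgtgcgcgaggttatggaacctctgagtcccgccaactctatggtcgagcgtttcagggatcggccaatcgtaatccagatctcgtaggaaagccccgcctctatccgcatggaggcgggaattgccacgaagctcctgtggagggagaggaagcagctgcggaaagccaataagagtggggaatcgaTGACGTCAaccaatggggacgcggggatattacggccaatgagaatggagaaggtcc
ATP5ME: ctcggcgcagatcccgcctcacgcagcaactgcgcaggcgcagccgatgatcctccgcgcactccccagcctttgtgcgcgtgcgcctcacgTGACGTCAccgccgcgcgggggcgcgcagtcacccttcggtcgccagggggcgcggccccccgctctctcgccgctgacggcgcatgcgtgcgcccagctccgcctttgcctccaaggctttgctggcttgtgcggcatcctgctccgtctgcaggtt
NDUFA10: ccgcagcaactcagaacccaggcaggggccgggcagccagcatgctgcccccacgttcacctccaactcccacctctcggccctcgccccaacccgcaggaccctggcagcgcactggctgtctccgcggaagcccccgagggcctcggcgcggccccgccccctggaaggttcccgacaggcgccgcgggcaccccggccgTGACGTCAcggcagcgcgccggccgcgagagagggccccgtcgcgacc
NDUFB2: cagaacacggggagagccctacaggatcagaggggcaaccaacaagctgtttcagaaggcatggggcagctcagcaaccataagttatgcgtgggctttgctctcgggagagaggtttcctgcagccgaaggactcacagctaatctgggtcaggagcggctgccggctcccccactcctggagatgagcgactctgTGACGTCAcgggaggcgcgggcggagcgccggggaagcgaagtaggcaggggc
ATP5MC2: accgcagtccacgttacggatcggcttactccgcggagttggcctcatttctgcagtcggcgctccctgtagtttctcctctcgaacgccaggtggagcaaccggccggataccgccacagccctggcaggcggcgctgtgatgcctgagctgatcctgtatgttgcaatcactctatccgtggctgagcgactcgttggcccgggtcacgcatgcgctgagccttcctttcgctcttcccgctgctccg
ATP5ME is a membrane subunit of ATP synthase, and NDUFA10 and NDUFB2 are accessory subunits of complex I.

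**Figure D4:**
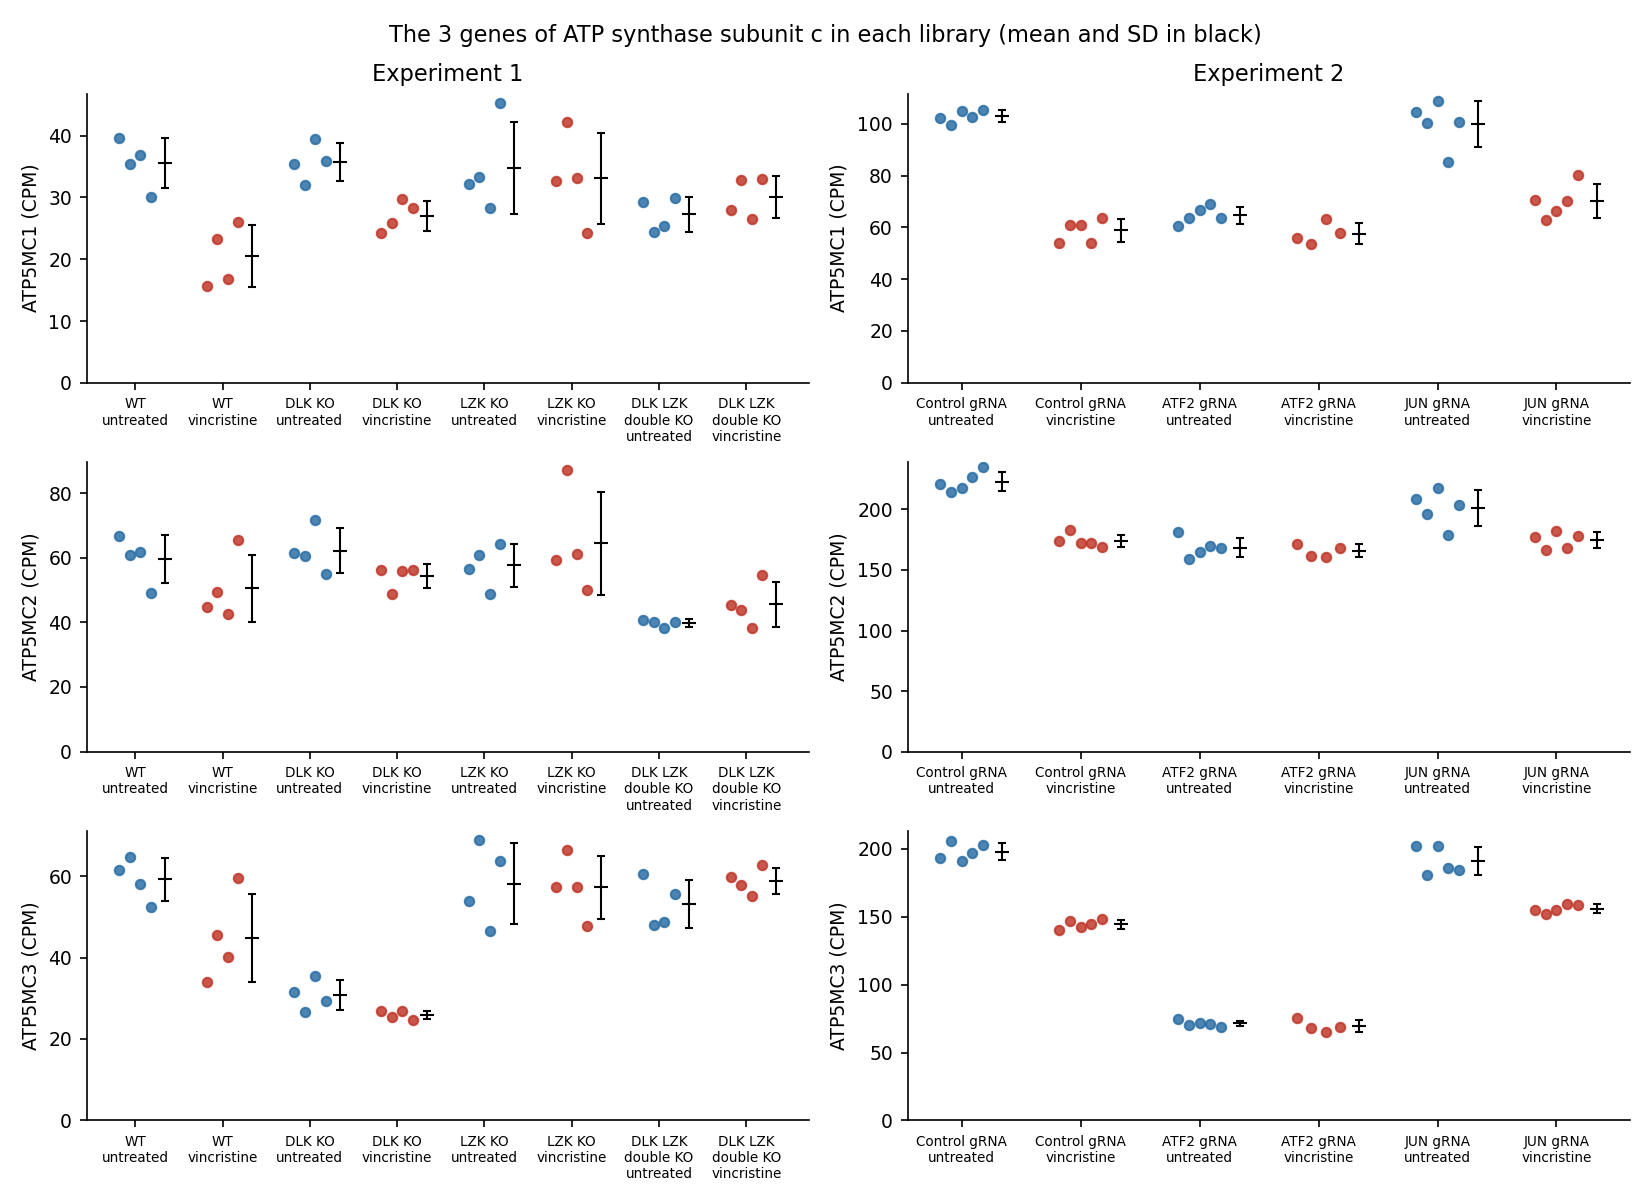
CPM of ATP5MC1, ATP5MC2 and ATP5MC3 in every library of experiment 1 (left) and experiment 2 (right), with mean and SD in black and the axis from 0. ATP5MC1 lay at 54.1 to 63.8 CPM after vincristine with the Control gRNA against 99.6 to 105 CPM untreated, and ATP5MC3 lay at 69.1 to 74.9 CPM in untreated ATF2 gRNA libraries.

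In the 3 knockout lines the counts of members called after vincristine were near or below the shares over all genes. In the DLK KO 1 of 91 nuclear members was called lower after vincristine and none higher, against 2.28% and 4.24% of all genes, with a median of -0.20. In the LZK KO none was called, against 1.61% lower and 2.27% higher over all genes (5 of 91 had an unadjusted p below 0.05, DESeq2 called 1 and limma voom 0), and the median was 0.08. In the DLK LZK double KO none was called either, against 0.0603% lower and 0.00548% higher (10 of 91 with an unadjusted p below 0.05, DESeq2 0, limma voom 1), and the median was 0.19. Fitting only the 2 groups compared changed these counts: 35 nuclear members were then higher in the double KO, 25 were lower and 1 higher in the DLK KO, and none was called in the LZK KO. Such a fit called fewer members in WT than in the DLK KO, as given in the closing section. No mitochondrial member was called in any of these 3 lines, where 1, 0 and 0 of 13 had an unadjusted p below 0.05 and DESeq2 and limma voom called 0 mitochondrial members, while the fits of only the 2 groups called 8 higher in the double KO, 1 (MT-ND6) higher in the DLK KO and 0 in the LZK KO. The single call in the DLK KO was NDUFA10 (-0.19), and it was lost without any of 5 of the 8 libraries.

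The differences themselves were tested as interaction terms. These comparisons share the WT libraries, so their values are given side by side and not as separate evidence. For the double KO 27 of 91 nuclear members had a higher fold change than in WT and 2 a lower one, against 9.21% and 10.2% of all genes, with a median difference of 0.51 on the log2 scale. For the LZK KO 9 were higher and none lower (5.88% of all genes higher and 6.53% lower), with a median of 0.39. For the DLK KO 3 were higher and 1 lower, against 9.95% and 9.41%, with a median of 0.09. No mitochondrial member was called in any of the 3, where 1, 2 and 2 of 13 had an unadjusted p below 0.05 in the DLK KO, LZK KO and double KO, DESeq2 called 0, 0 and 1, and limma voom called 3, 5 and 6. The medians of the mitochondrial members were 0.13, 0.30 and 0.20.

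ATP5MC1 was among the largest differences in the double KO and the LZK KO. Its levels in the double KO were 29.3, 24.4, 25.4 and 30.0 CPM untreated and 27.9, 32.8, 26.5 and 33.0 CPM after vincristine, so the groups overlapped. The difference from WT was 0.95 (SE 0.21, edgeR adjusted p = 0.00149), and 0.74 in the LZK KO (adjusted p = 0.0197), while in the DLK KO its own fold change was -0.40 and the difference was not called. CYC1 stood at 33.9, 27.8, 29.0 and 35.1 CPM untreated and 33.2, 35.7, 34.8 and 32.9 CPM treated in the double KO. It differed from WT there by 0.79 and in the DLK KO by 0.65 (edgeR adjusted p = 0.000346 and 0.00332). Other large differences in the double KO were NDUFB6 (0.97) and NDUFAF8 (0.85), and NDUFAF7 and NDUFA4L2, the 2 genes that rose in WT, differed by -0.42 and -0.57. In the LZK KO ATP5MF, a membrane subunit of ATP synthase, differed by 0.82.

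These counts shifted with the WT library that stood apart. Without WT vincristine replicate 4 the nuclear members higher numbered 64 in the double KO, 44 in the LZK KO and 8 in the DLK KO, with 3, 3 and 1 mitochondrial members higher. Without WT vincristine replicate 1 the double KO count was 18. The LZK KO count was 5 without WT untreated replicate 1, WT untreated replicate 2 or WT vincristine replicate 3, and 21 without LZK KO vincristine replicate 4. The DLK KO count was 6 higher without DLK KO untreated replicate 3. The LZK KO libraries were also spread widely, with nuclear sums of 5782 to 7753 CPM untreated and 5778 to 8914 CPM after vincristine. Their shares of small non-coding RNA were 3.05% to 3.95% untreated and 2.40% to 5.77% after vincristine, and their part was not tested.

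With the ATF2 gRNA members of both genomes were lower after vincristine, and the difference between the sets was not tested. There 18 of 94 nuclear members were lower and none higher, against 4.22% of all genes lower and 1.88% higher, with a median of -0.11. Of 13 mitochondrial members 10 were lower, with a median of -0.24. MT-ATP8 (-0.38), MT-ATP6 (-0.37), MT-ND3 (-0.32), MT-ND2 (-0.28), MT-ND6 (-0.26), MT-CO3 (-0.25), MT-ND4L (-0.24), MT-CYB (-0.22), MT-ND5 (-0.22) and MT-ND1 (-0.21) fell, and MT-CO1, MT-CO2 and MT-ND4 stood at -0.15, -0.20 and -0.22. All 13, which are not separate measurements, lay lower in each treated library than in each untreated one. So did 17 of 94 nuclear members and 955 of all 20759 genes tested. The nuclear calls included NDUFB6, NDUFB3 and ATP5PO (-0.26, -0.25 and -0.22). The mitochondrial count was not stable: it was 4, 5 and 3 without ATF2 gRNA vincristine replicate 2, 3 or 4, where the nuclear members lower were 13, 12 and 8, and it was 2 with gene length as an offset. A fit of only these 2 groups called all 13 mitochondrial and 5 nuclear members lower. With the JUN gRNA 47 of 94 nuclear members fell and none rose (8.31% of all genes lower and 7.58% higher, median -0.14). MT-ND1 and MT-ND2 fell (-0.13 and -0.22). Without JUN gRNA untreated replicate 3 the nuclear count was 30, and the mitochondrial count ranged from 1 to 4 over single libraries left out.

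Against the Control gRNA response, 34 of 94 nuclear members had a higher fold change with the ATF2 gRNA and none a lower one (10.2% and 10.4% of all genes). Of 13 mitochondrial members 3 had a lower one and none a higher one. The medians of the differences were 0.17 for nuclear members, -0.15 for mitochondrial members and -0.04 for all genes. Complex V had 14 of 20 members higher (median 0.23), and complexes I (accessory), III and IV had 9 of 30, 3 of 10 and 4 of 15. The count of nuclear members higher was 20 without ATF2 gRNA vincristine replicate 2. The count of mitochondrial members lower was 1 without that library, ATF2 gRNA untreated replicate 2 or 4, Control gRNA untreated replicate 2 or 4, or Control gRNA vincristine replicate 1, and 5 without Control gRNA untreated replicate 3. With the JUN gRNA 21 of 94 nuclear members were higher and none lower (8.71% of all genes higher and 7.06% lower), with a median of 0.14. The count higher was 8 without JUN gRNA untreated replicate 5. No mitochondrial member was called (1 of 13 with an unadjusted p below 0.05, and 1 by DESeq2 and by limma voom). Both comparisons use the same Control gRNA libraries.

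MT-ATP6, a proton channel subunit of ATP synthase, showed the mitochondrial side. It stood at 2953, 2697, 3110, 2766 and 3013 CPM in untreated Control gRNA libraries and at 3253, 2903, 2745, 2788 and 2659 CPM after vincristine, with overlapping ranges. With the ATF2 gRNA the values were 2134, 2193, 2070, 2507 and 2187 CPM untreated and 1686, 1736, 1623 and 1806 CPM treated, so that every treated library lay lower. The difference between the responses was -0.35 (SE 0.12, edgeR adjusted p = 0.0456), and it lost its call under 18 of 29 alternatives, over which it ranged from -0.39 to -0.31. MT-ND4, a proton-pumping subunit of complex I, differed by -0.34 (edgeR adjusted p = 0.011), a call that held under all 29 alternatives. It stood at 7536, 6999, 8410, 7245 and 7663 CPM untreated and 9092, 8325, 8043, 8008 and 7751 CPM treated with the Control gRNA, and at 6138, 6709, 6344, 7153 and 6654 CPM untreated and 5530, 5738, 5562 and 5910 CPM treated with the ATF2 gRNA. The Control gRNA groups overlapped and the ATF2 gRNA groups did not. MT-ND4L differed by -0.27 and lost its call under 11 of 29 alternatives.

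The nuclear side was clearest in ATP5MC1. With the ATF2 gRNA it stood at 60.4, 63.6, 66.6, 69.2 and 63.7 CPM untreated and at 55.8, 53.7, 63.1 and 57.6 CPM after vincristine, a fold change of -0.17 that was not called. The difference from the Control gRNA response was 0.64 (SE 0.09, edgeR adjusted p = 1.11e-07). The treated ATF2 gRNA values overlapped the treated Control gRNA values, and the untreated ones lay below all untreated Control gRNA values. ATP5MC3 differed by 0.41, ATP5MG by 0.40 and COX7B by 0.38. With the JUN gRNA ATP5MC1 went from 104, 100.1, 109, 85.1 and 101 CPM to 70.5, 62.9, 66.2, 70.3 and 80.3 CPM, a fall of 0.51 that was smaller than with the Control gRNA by 0.30 (edgeR adjusted p = 0.009). ATP5S, a coupling factor of ATP synthase (0.35), and NDUFS6 (0.30) were the other leading differences with the JUN gRNA.

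The same contrast can be read within each library as the mean log2 CPM of the mitochondrial members minus that of the nuclear members. With the Control gRNA it lay at 5.28, 5.17, 5.34, 5.21 and 5.28 untreated and at 5.56, 5.46, 5.42, 5.44 and 5.45 after vincristine, with no overlap. In WT it lay at 5.10, 5.02, 5.04 and 5.18 untreated and at 5.25, 5.21, 5.20 and 5.25 treated, and in the DLK KO it was 5.17 ± 0.03 (SD, n = 4) untreated and 5.40 ± 0.02 treated, both again without overlap. WT replicate 4, high in both sums, was not apart on this measure. With the ATF2 gRNA the values were 5.05, 5.21, 5.14, 5.34 and 5.23 untreated and 5.05, 5.06, 5.05 and 5.08 treated, overlapping, with the mean lower after treatment. The groups also overlapped in the LZK KO (4.84 ± 0.22 and 4.92 ± 0.13), the double KO (5.32 ± 0.06 and 5.29 ± 0.11) and with the JUN gRNA (5.32 ± 0.10 and 5.37 ± 0.15, SD, n = 5). Mitochondrial ribosomal RNA made up 1.14% ± 0.02 of counts with the untreated Control gRNA and 1.62% ± 0.08 after vincristine, and 0.912% ± 0.058 and 0.938% ± 0.022 with the ATF2 gRNA.

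Before any drug, both sets were already lower with the ATF2 gRNA than with the Control gRNA. In untreated ATF2 gRNA neurons 64 of 94 nuclear members were lower and 4 higher than with the Control gRNA, against 20.2% and 19.7% of all genes, and 11 of 13 mitochondrial members were lower, with medians of -0.23 and -0.26 beside 0.02 over all genes. Summed CPM was 9326 ± 348 for nuclear and 43213 ± 2160 for mitochondrial members (SD, n = 5), below every untreated Control gRNA library in both. Complex V had 17 of 20 members lower and 1 higher, complex IV 12 of 15, complex III 8 of 10, complex I 20 of 30 accessory and 4 of 7 core subunits, but 1 of 8 assembly factors. In complex IV COX6B1 (-0.48), COX8A (-0.46), COX4I1 (-0.41) and COX6A1 (-0.39) fell, and in complex II SDHA (-0.35) and SDHC (-0.17) fell. MT-ND1 fell most among mitochondrial members (-0.42), MT-ATP6 and MT-ATP8 by 0.39, MT-CYB by 0.36 and MT-CO3 by 0.34. MT-ND2 and MT-CO1 fell by 0.25, MT-CO2 by 0.26, MT-ND3 by 0.31, MT-ND4L by 0.23 and MT-ND4 by 0.20, and MT-ND5 (-0.08) and MT-ND6 (-0.01) were not called. SDHD (0.37), ATP5S (0.26), NDUFAF2 (0.23) and NDUFC1 (0.22) rose. Summed neuron markers were also lower, at 11830 to 12030 CPM against 13340 to 13760, and the sum led by NES at 738 to 817 against 1309 to 1398 CPM, and their part in the result was not tested.

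ATP5MC3 moved far more than the rest. It stood at 193, 206, 191, 196 and 203 CPM in untreated Control gRNA libraries and at 74.9, 70.5, 71.6, 71.0 and 69.1 CPM with the ATF2 gRNA. All 5 values were less than any control value by a wide margin, and the log2 fold change was -1.47 (SE 0.04, edgeR adjusted p = 1.13e-31). ATP5MC3 (chr2:175176258-175184607) lies on the same strand, 7875 bases from the gene ATF2 itself (chr2:175072250-175168382, GRCh38), the target of the guide. CHN1, on the far side of ATF2, fell by 0.52, and the median of the 29 genes tested within 2 Mb of ATP5MC3 was 0.13. ATP5MC1 (-0.67) and ATP5ME (-0.62), on chromosomes 17 and 4, were the next in size, with neighbours at medians of 0.03 and 0.01. An effect of the guide on its neighbour and an effect through the ATF2 protein cannot be told apart for ATP5MC3.

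With the JUN gRNA 20 of 94 nuclear members were lower in untreated neurons and none higher (5.46% of all genes lower and 5.78% higher), with a median of -0.09. MT-ND1 was lower (-0.18). The nuclear count was 13 without Control gRNA untreated replicate 2, JUN gRNA untreated replicate 2 or JUN gRNA untreated replicate 4, and 27 without JUN gRNA untreated replicate 3. Complex IV supplied 9 of these, among them COX6C (-0.21), COX7A2, COX4I1 and COX6A1 (-0.18 each). NDUFA1 (-0.23) and ATP5ME (-0.22) were the largest.

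Of 100 nuclear members, 81 matched a RefSeq promoter, 76 by symbol and 5 by synonym. Searching the 250 bases before the start on both strands, the palindromic NRF1 motif was found in 15 of 81 (18.5%) against 5.53% of 27305 promoters, and the ETS motif CCGGAAG in 18 (22.2%) against 8.82%. NRF1 and the ETS factor GABP are known regulators of respiratory chain genes. The element TGACGTCA was found in 4 (4.94%) against 1.77%, the AP-1 motif TGANTCA in 4 (4.94%) against 6.6%, CCAAT in 25 (30.9%) against 33%, the E box CACGTG in 7 (8.64%) against 6.49% and the YY1 motif AAGATGGC in 1 (1.23%) against 1.37%. The 27305 promoters include those of genes not tested here. Of the 12380 genes tested in experiment 2 with a promoter listed, 1162 held the NRF1 motif, 1739 the ETS motif and 333 TGACGTCA. The E box was in 1059 and the AP-1 motif in 508. For NRF1, ETS, TGACGTCA and the E box these shares were higher than over all promoters, so the excess among members was smaller. The AP-1 share was lower, so the shortfall above depended on the background. None of these motifs contains another whole. With the untreated ATF2 gRNA all 4 members with TGACGTCA were lower (ATP5MC1 -0.67, ATP5ME -0.62, NDUFA10 -0.35 and NDUFB2 -0.29). Of all 94 nuclear members tested 64 were lower. Among them were 13 of 18 with the ETS motif, 18 of 23 with CCAAT, 10 of 15 with the NRF1 motif and 3 of 7 with the E box. Of all 333 tested genes with TGACGTCA 32.4% were lower and 19.5% higher. Of 12380 tested genes with any promoter listed 25.4% were lower and 23.2% higher. ATP5MC2, printed above without the element, fell by 0.40. Under vincristine with the Control gRNA the 4 with TGACGTCA fell too (-0.81, -0.41, -0.27 and -0.30), as did 73 of all 94 nuclear members. Of the 333 genes 30.3% rose and 19.2% fell, against 21.1% and 23.4% of the 12380.

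In the untreated knockout lines, most members that changed by a large amount had chromosomal neighbours that moved the same way. In the DLK KO 13 of 91 nuclear members were lower and 5 higher than in WT, against 17.9% and 16.5% of all genes, with 2 of 13 mitochondrial members lower and 1 higher. The number of nuclear members higher was 2 without DLK KO untreated replicate 3 or WT untreated replicate 4, and 3 without WT untreated replicate 2 or 3. All 9 members that fell by at least 0.7 on the log2 scale, a size chosen after seeing the data, lie on chromosomes 2 or 5: NDUFAF2 (-1.26), SDHA (-1.19), NDUFB3 (-1.07), NDUFS4 (-1.06), NDUFS1 (-0.97), ATP5MC3 (-0.94), COX7C (-0.89), NDUFS6 (-0.88) and NDUFA10 (-0.74). The median of the other genes within 2 Mb of each was -1.15 to -0.67. SDHA stood at 128, 128, 132 and 127 CPM in untreated WT and at 55.1, 57.4, 53.6 and 60.0 CPM in untreated DLK KO neurons, and all 25 of its tested neighbours lay below 0. The members that rose most were NDUFAF5 (0.51, with its neighbours at 0.75), NDUFAF1 (0.44) and NDUFV2 (0.42). Over all tested genes of chromosomes 2 and 5, 39.4% and 38.3% were lower.

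In the double KO 33 of 91 nuclear members were lower and 7 higher, against 22.1% and 23.6% of all genes, with a median of -0.25, and 1 mitochondrial member was called in each direction. Without WT untreated replicate 4 the nuclear members higher numbered 4. NDUFB10 stood at 106, 103, 98.5 and 85.2 CPM in untreated WT and at 36.3, 34.7, 32.5 and 38.7 CPM in the double KO, far apart, and ATP5F1A, the alpha subunit of ATP synthase, at 399, 409, 435 and 374 against 172, 158, 165 and 172 CPM. NDUFB10 (-1.47), UQCRC2 (-1.04) and NDUFAB1 (-0.94) lie on chromosome 16, ATP5F1A (-1.28) on 18, and SDHD (-1.13) and ATP5MG (-1.07) on 11, with neighbour medians of -1.10 to -0.82. ATP5F1E, on chromosome 20, rose by 0.75 with its neighbours at 0.65. Among the 9 called members of that size, NDUFAF1 (-0.86) and NDUFA4L2 (0.83) had neighbours near 0 (0.03 and -0.12). Over all tested genes, 50% of those of chromosome 16 and 58.3% of those of chromosome 18 were lower. Summed neuron markers were 13440 to 14320 CPM in untreated WT, 13350 to 14680 in the DLK KO and 16810 to 17040 in the double KO, and the sum led by NES 729 to 771, 199 to 264 and 105 to 112 CPM, and their part was not tested. The cause of these blocks was not tested, and an effect of the kinase loss on a member inside one cannot be told apart from what moved its neighbours.

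**Figure D5:**
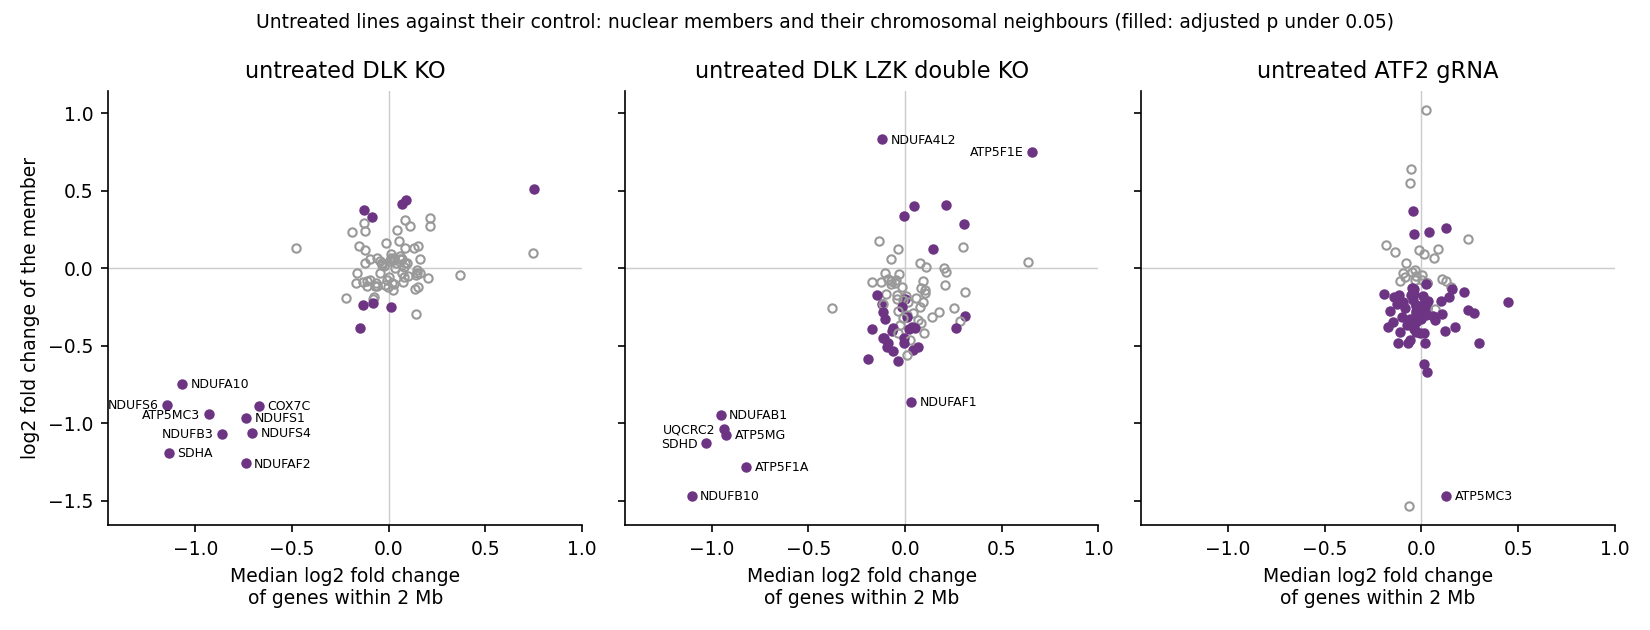
Log2 fold change of each nuclear member in untreated DLK KO, double KO and ATF2 gRNA neurons (vertical axis) against the median log2 fold change of the other genes tested within 2 Mb (horizontal axis). Filled points have an adjusted p below 0.05, and names mark such members changed by at least 0.7. In the knockouts the low named members other than NDUFAF1 (0.03) sit at neighbour medians of -1.15 to -0.67, while ATP5MC3 with the ATF2 gRNA sits at 0.13.

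The untreated LZK KO had 11 of 91 nuclear members lower and 1 higher (16.8% and 17.1% of all genes) and 4 of 13 mitochondrial members lower: MT-ND6 (-0.65), MT-CO1, MT-CO3 and MT-CYB (-0.37 each). Among nuclear members NDUFAF3 (-0.44), CYC1 and NDUFB10 (-0.41 each) fell most and NDUFAF5 (0.30) rose, and no called member reached 0.7. Without LZK KO untreated replicate 4 or WT untreated replicate 1, 8 nuclear members were lower, and 2 and 1 mitochondrial. The mitochondrial count was also 2 without LZK KO untreated replicate 1 or 3, and 7 without LZK KO untreated replicate 2. MT-ND6 was called lower in all 3 knockouts (-0.65 in the DLK KO, -0.52 in the double KO), which share the WT libraries. It stood at 278, 274, 302 and 345 CPM in untreated WT, at 177, 188, 212 and 187 CPM in the DLK KO, at 177, 190, 182 and 218 CPM in the LZK KO and at 222, 190, 212 and 213 CPM in the double KO, so every knockout library lay below every WT library. The other mitochondrial calls were MT-CO3 (-0.36) and MT-ND5 (0.32) in the DLK KO and MT-ND2 (0.44) in the double KO.

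Genes outside the chain that make or serve it were read from lists drawn up with earlier results of these data known. Their counts stand beside 15.7% of all genes higher and 14.5% lower in WT, 17.1% and 18.1% with the Control gRNA, and 10.2% and 10.4% in the ATF2 gRNA difference, and several lie near these shares. Of 14 regulators of mitochondrial biogenesis, 3 rose and 4 fell in WT after vincristine, and 6 rose and 3 fell with the Control gRNA. The coactivator PPARGC1B fell by 1.37 and 0.38, its relative PPRC1 by 0.83 and 0.20, and the nuclear receptor ESRRB rose by 1.27 and 1.62. The difference in response was opposite in sign for each: PPARGC1B 0.95, PPRC1 0.64 and ESRRB -1.29 in the double KO, and 0.57, 0.25 and -1.71 with the ATF2 gRNA, all called. Each difference subtracts the WT or Control gRNA response just given, and the genes were picked for called changes. The opposite sign is thus partly built in and is not separate evidence. Of 16 tested genes for transcription and replication of mitochondrial DNA, 2 rose and 2 fell in WT and 1 rose and 2 fell with the Control gRNA, among them MTERF3, of the mitochondrial transcription termination factor family (-0.61 and -0.49). Of 17 tested genes for mitochondrial RNA processing 5 and 9 fell and 0 and 1 rose, led by HSD17B10, a subunit of the mitochondrial RNase P (-0.74 and -0.58).

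Assembly factors of complexes III, IV and V had 7 of 30 lower and 4 higher in WT and 14 lower and 2 higher with the Control gRNA. HIGD1A (-0.85 and -0.60) and COA3 (-0.59 and -0.60), which act in complex IV assembly, fell, and COX19, another factor for complex IV, rose (0.80 and 0.30). Among 17 enzymes of the tricarboxylic acid cycle and its entry, 5 and 11 fell and none rose, with DLAT of pyruvate dehydrogenase at -0.55 and -0.34. Of 19 tested import components 5 and 11 fell and 1 and 2 rose, with the pore TOMM40 at -0.56 and -0.47 and TIMM44 at 0.45 and 0.34. Of 16 electron carriers and dehydrogenases 2 and 5 fell and 3 and 1 rose: DHODH, which feeds electrons from pyrimidine synthesis, fell (-0.87 and -0.42), COQ2 of ubiquinone synthesis rose (0.90 and 0.48), and cytochrome c (CYCS) fell by 0.45 with the Control gRNA. Translation factors (2 and 3 of 13 lower, 1 and 2 higher), mitophagy and dynamics genes (2 and 5 of 19 lower, 4 and 3 higher) and adenine nucleotide carriers with uncoupling proteins (2 and 3 of 7 lower, 0 and 1 higher) were mixed, with TUFM at -0.23 and -0.31 and BNIP3 at -0.46 and -0.39. In the difference for the ATF2 gRNA 7 of 19 import components and 5 of 17 tricarboxylic acid cycle genes were higher and 1 of each lower, and 8 of 30 assembly factors were higher and none lower.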

How the data were processed

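The deposited files hold whole-number counts per gene, which the authors made with cutadapt 3.4, STAR and featureCounts (Subread 2.0.1) on GRCh38, per the submitters' processing notes. The strand setting, the annotation and the handling of duplicates are not given in the sources used here. Identifiers were matched to GENCODE 29, where 106 of 113 members had the same version. In each experiment all groups entered one edgeR 4.0.16 fit in R 4.3.3 (filterByExpr by group, TMM factors, robust quasi-likelihood test), with Benjamini-Hochberg adjustment over all genes and a threshold of 0.05. Levels are CPM on TMM-scaled library sizes, and log2 levels used a prior count of 2. The analysis was tested on simulated data. The alternatives were DESeq2 1.42.0, limma 3.58.1 voom with sample weights, RLE factors, other filters, fits of only the groups compared, scaling without the mitochondrial genome, a replicate block, each library left out, and, chosen after seeing the data, GC content and length offsets. No pair among 104 replicate pairs agreed within sampling noise. The members and lists were chosen with earlier results of these data known. Genes named were every mitochondrial member, the called nuclear members with the largest changes at a mean log2 CPM of at least 1 (6 in each direction for vincristine in WT and with the Control gRNA, 3 elsewhere), isoform sets, SDHA to SDHD and ATP5IF1, and from each other list up to 3 called genes in each direction.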

Additional observations from a re-analysis of the deposited data

Results flagged for a closer look

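Within groups of 4 or 5 libraries, 252 sets of values were examined for a library far from the others, and 17 were found, where chance marks about 1 in 20 groups. In experiment 1 the summed mitochondrial CPM of DLK KO untreated replicate 3 was 37628 (next 33711), and the same library was highest for MT-CO1 (7646.2 CPM) and MT-ND4 (7008.6 CPM). WT vincristine replicate 4 was lowest for SDHA (89.606 CPM) and highest for MT-ND6 (401.02 CPM). LZK KO vincristine replicate 4 stood apart for SDHA at 129.58 CPM and replicate 2 for ATP5F1A at 452.82 CPM. Others were ATP5MC2 at 48.727 CPM in DLK KO vincristine replicate 2, UQCRFS1 at 73.109 CPM in double KO vincristine replicate 4 and NDUFAF7 at 30.048 CPM in double KO untreated replicate 1.

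In experiment 2 Control gRNA vincristine replicate 5 stood apart for NDUFAF7 (36.506 CPM), NDUFA4L2 (7.0031 CPM) and ATP5F1A (707.24 CPM). The remaining values were UQCRFS1 at 177.18 CPM in Control gRNA untreated replicate 2, MT-ND6 at 96.115 CPM in Control gRNA untreated replicate 5, MT-ATP6 at 2507.1 CPM in ATF2 gRNA untreated replicate 4 and MT-ND4 at 8803.1 CPM in JUN gRNA untreated replicate 3.

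The response to vincristine differed between lines, by edgeR's interaction test, for more members than are repeated here. The 21 values below are the called nuclear members with the largest differences, up to 3 in each direction, and every called mitochondrial member. In the DLK KO against WT these were CYC1 (0.65), NDUFAF3 (0.64), SDHA (0.44) and NDUFAF7 (-0.48). In the LZK KO they were ATP5MF (0.82), ATP5MC1 (0.74) and NDUFAF8 (0.59). In the double KO they were NDUFB6 (0.97), ATP5MC1 (0.95), NDUFAF8 (0.85), NDUFAF7 (-0.42) and NDUFA4L2 (-0.57). With the ATF2 gRNA against the Control gRNA they were ATP5MC1 (0.64), ATP5MC3 (0.41), ATP5MG (0.40), MT-ATP6 (-0.35), MT-ND4 (-0.34) and MT-ND4L (-0.27), and with the JUN gRNA ATP5S (0.35), NDUFS6 (0.30) and ATP5MC1 (0.30).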

How the results depend on the processing

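No named gene called in a comparison changed its direction under the alternatives run. The count of members called stayed within 1.5 times its value in 140 of 170 values from other tools and settings, and the mitochondrial minus nuclear mean log2 fold change stayed within its spread in 173 of 187. Libraries of experiment 1 held fewer counts than those of experiment 2, and the SD of the nuclear sum after vincristine was 1154 CPM in WT against 47.5 CPM with the Control gRNA. What limits the calls in experiment 1 was not tested. The cause of each shift below was not tested.

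Limma voom called 75 members for vincristine in WT, 14 in the DLK KO, 1 in the double KO and 8 with the ATF2 gRNA, 20, 64, 79 and 35 for the differences of the DLK KO, LZK KO, double KO and JUN gRNA, and 25 in the untreated LZK KO. Fits of only the groups compared called 13 in WT, 27 in the DLK KO, 43 in the double KO and 18 with the ATF2 gRNA for vincristine, 2 for the LZK KO difference, and 37 and 70 in the untreated DLK KO and double KO. Without a filter 3 were called for vincristine in the DLK KO, 23, 6 and 17 for the differences of the ATF2 gRNA, JUN gRNA and LZK KO, and 10 in the untreated LZK KO. Length offsets called 6 for vincristine in the DLK KO, 10 with the ATF2 gRNA and 5 for the LZK KO difference. DESeq2 called 4 in the DLK KO, 1 in the LZK KO and 16 for the LZK KO difference, GC content offsets 3 and scaling without the mitochondrial genome 2 in the DLK KO, and RLE factors 18 for vincristine with the ATF2 gRNA.

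Leaving out each replicate in turn gave 17 to 62 members called for vincristine in WT, 0 to 3 in the DLK KO, 72 to 77 with the Control gRNA, 11 to 32 with the ATF2 gRNA and 31 to 49 with the JUN gRNA. The differences gave 4 to 10 (DLK KO), 5 to 47 (LZK KO), 19 to 68 (double KO), 22 to 47 (ATF2 gRNA) and 8 to 27 (JUN gRNA), and the untreated LZK KO 10 to 16.

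The mitochondrial minus nuclear mean log2 fold change was 0.23 with length offsets in WT, -0.13 in the double KO, and 0.30 with GC content offsets and 0.15 without a filter in the DLK KO. Its differences were 0.20 (GC content offsets), 0.018 (length offsets), 0.038 (medians) and 0.0017 (no filter) for the DLK KO, -0.36, -0.31 and -0.24 with length offsets, medians and no filter for the double KO, and -0.25 with length offsets for the LZK KO. In the untreated DLK KO it was 0.16 with length offsets and also without a filter. Its sign changed with a library left out where it was near 0: from -0.00029 to 0.20 for vincristine in the LZK KO, -0.068 to 0.021 in the double KO and -0.013 to 0.072 with the JUN gRNA, and -0.14 to 0.058 for the LZK KO difference.

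In no comparison did the deviations of every same-numbered pair correlate above 0.1, and in no comparison did every sample correlate best with its own. The highest value for a pair was 0.11, for vincristine in the LZK KO. The main fit used no pairing by number. In groups this small a weak factor shared by same-numbered samples could go unseen. With the replicate block the counts were 30 for vincristine in WT, 75 with the Control gRNA and 20 with the ATF2 gRNA, and 26 and 34 for the differences of the double KO and the ATF2 gRNA.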
